A study of Danio rerio with 6 samples.

Results

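The proteasome genes described here are the 56 records, of 25432 in the count table, whose symbol is psm followed by a letter from a to g and a digit. They were sorted by known role into 16 core particle genes, 20 genes of the regulatory cap, 9 immunoproteasome genes, 4 genes of alternative caps or an inhibitor, 6 assembly chaperone genes and 1 gene, psmc3ip, that is named after a subunit but encodes a meiotic recombination factor. RNA was sequenced from whole zebrafish embryos at 72 hours post fertilization, with 3 libraries of pooled embryos (50 per pool) that received a control morpholino, called control-MO, and 3 that received a morpholino against wbp11, called wbp11-MO. No allele, strain or other agent is given in the labels, and a morpholino knocks a gene down transiently. The work concerns VACTERL association, in which several human organ systems are malformed together, and the comparison asks which genes differ when the splicing factor gene wbp11 is targeted. The libraries held between 11219706 and 13669995 counted reads.

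The proteasome destroys proteins that carry a ubiquitin chain. Its barrel-shaped core has outer rings of alpha subunits, which gate the entrance, and inner rings of beta subunits, of which psmb5, psmb6 and psmb7 cut peptides. The regulatory cap binds the ubiquitin chain, removes it and threads the protein into the core with a ring of ATPases. In vertebrates, interferon and lymphoid cells bring in other catalytic subunits that make the immunoproteasome, which shapes peptides for antigen presentation. In mammalian cells the transcription factor NFE2L1 raises most core and cap genes together when proteasome activity falls short.

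Core and cap genes were modestly higher in the wbp11-MO embryos, and the immunoproteasome genes had low counts in both groups. Of 50 members with enough counts to test, 35 rose and 2 fell (edgeR quasi-likelihood test, Benjamini-Hochberg adjusted p under 0.05 over 20012 genes). Over all tested genes 30.5% were higher, 31.2% were lower and 61.7% differed in either direction. The groups did not overlap in 35 members that were higher and 6 that were lower in wbp11-MO, against 65.4% of all tested genes in either direction. The rises were small, with log2 fold changes between 0.18 and 0.53, and only psma6l changed at least 2-fold. The median log2 fold change was 0.30 over the tested members and 0.00 over all tested genes, written 0.0013 at full precision. With library totals in place of TMM scaling, 30 members rose and 6 fell. Whole embryos do not show whether a tissue held fewer cells or less RNA per cell, so a level can move by either route.

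Members differed by abundance, but the abundant ones were mostly core or cap genes. Most of the less abundant tested members lay outside both classes, so abundance and class cannot be told apart. Of 36 members with a mean of at least 25 CPM (counts scaled to a common library size with TMM factors), 33 rose and 0 fell in the edgeR test, with 34 at an unadjusted p under 0.05, which 5647 of the 7229 tested genes of that abundance and 12989 of all 20012 also reached. No alternative made any of these 36 fall past the threshold. Among all 7229 tested genes at or above that mean, 47.0% rose, 28.7% fell and 75.7% did either, and their median log2 fold change was 0.13 against 0.33 for the members. The groups of 34 abundant members did not overlap, with wbp11-MO higher in each, against 47.8% of all abundant genes, or 77.3% in either direction. Of the 14 tested members under 25 CPM, 2 rose and 2 fell. Over tested genes of any abundance 30.5% rose and 31.2% fell. Since abundant genes rose more often than that, scarce genes in general rose less often, so the direction of this contrast is not particular to the members. The size of the contrast was not compared with that among all genes. The standard errors of these 14 members ran from 0.11 to 0.42 on the log2 scale, against at most 0.09 for the abundant members. For 7 of the 14 the 95% interval of the change included the core median of 0.32. For the other 7, the interval lay wholly below it.

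**Figure D1:**
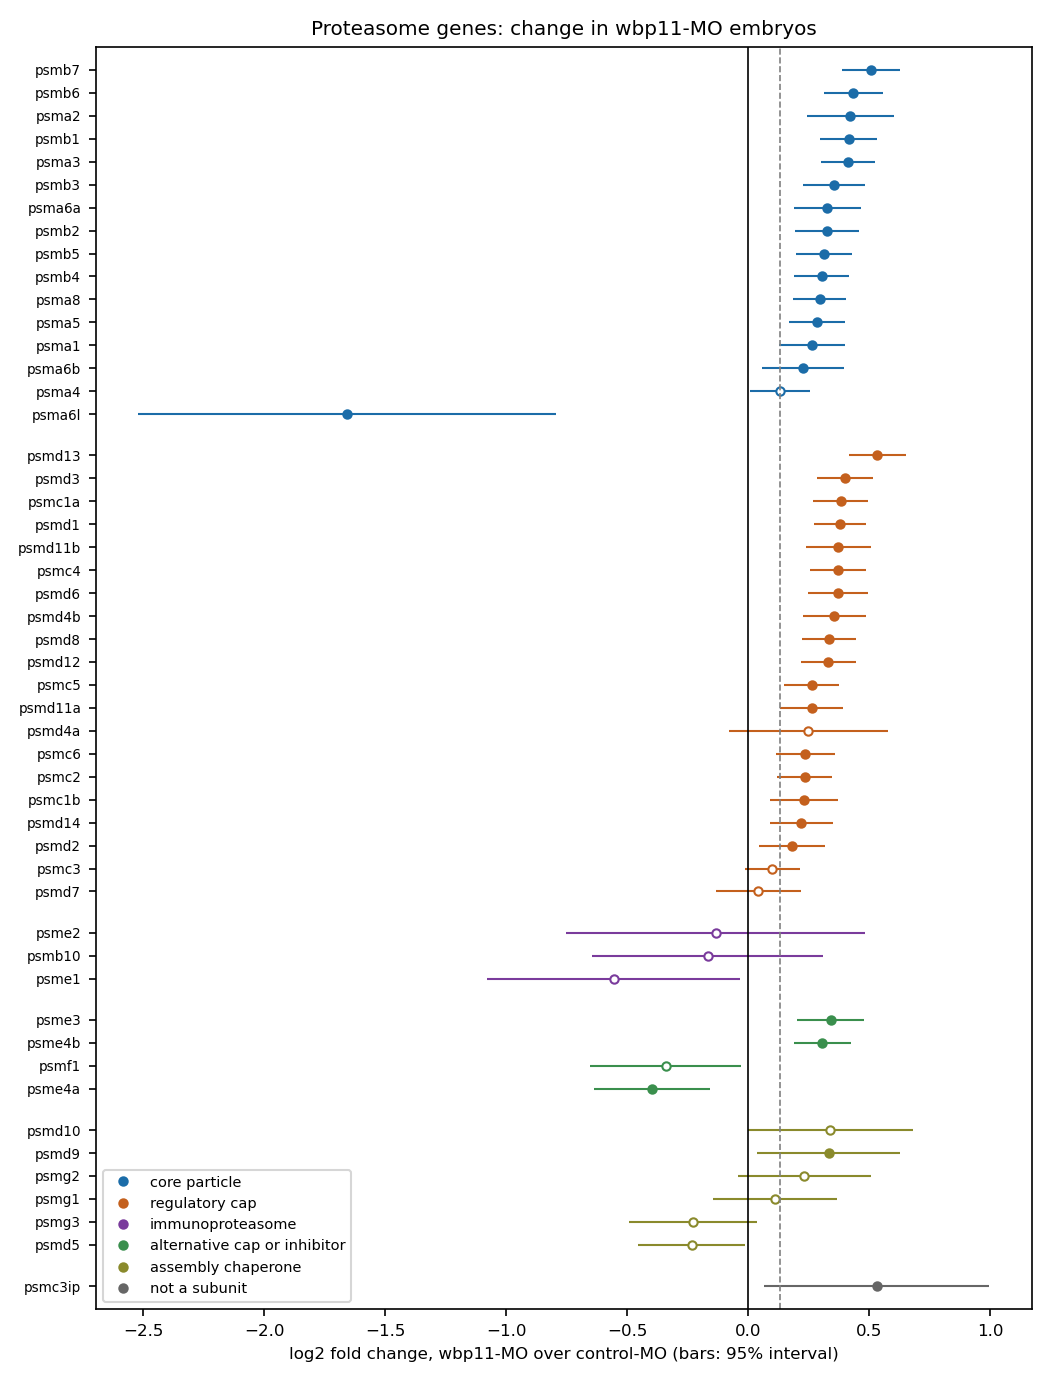
Log2 fold change of each tested proteasome gene in wbp11-MO over control-MO embryos (x axis) by class (colour), with 95% intervals as bars; filled points passed the adjusted p threshold and open points did not. The dashed line is the median of all genes with at least 25 CPM, 0.13, and nearly all core and cap points lie to its right, while psma6l stands far to the left at -1.66.

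Among the core genes, 14 of 16 rose and 1 fell, with a median log2 fold change of 0.32. Over all tested genes 30.5% rose and 31.2% fell. Among those of at least 25 CPM 47.0% rose and 28.7% fell, with a median of 0.13. These shares are the background of every class count below. Summed, the core genes stood at 1286 ± 39.2 CPM in control-MO and 1626 ± 4.71 CPM in wbp11-MO (SD, n = 3 each), 26.4% higher. In each library the core genes together took between 0.130% and 0.135% of all counts in control-MO and between 0.157% and 0.162% in wbp11-MO.

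The constitutive catalytic genes moved together. The gene psmb7 (ENSDARG00000037962, chromosome 21, 8341774 to 8352095, GRCz11), which encodes the trypsin-like subunit, stood at 112, 108 and 123 CPM in the control-MO libraries and at 155, 166 and 167 CPM in the wbp11-MO libraries. Every wbp11-MO library lay above every control-MO library, and the log2 fold change of 0.51 ± 0.06 (SE, adjusted p by edgeR = 6.9e-09) was the largest among core genes. The gene psmb6 (ENSDARG00000002240, chromosome 23, 44536926 to 44546152), which encodes the caspase-like subunit, stood at 65.0, 64.4 and 66.6 CPM against 88.7, 88.3 and 87.8 CPM. These values are tight within each group and do not overlap, and the log2 fold change was 0.43 ± 0.06 (SE, adjusted p by edgeR = 2.5e-07). The gene psmb5 (ENSDARG00000075445, chromosome 2, 38373272 to 38392575), which encodes the chymotrypsin-like subunit that bortezomib blocks, stood at 121, 112 and 126 CPM against 150, 147 and 149 CPM. It rose by the least of these, with a log2 fold change of 0.31 ± 0.06 (SE, adjusted p by edgeR = 1.6e-05).

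The structural beta genes psmb1, psmb2, psmb3 and psmb4, whose products complete the inner rings, all rose, with log2 fold changes between 0.30 and 0.41 and no overlap between the groups. The largest was psmb1, at 114, 107 and 104 CPM against 141, 139 and 153 CPM. The smallest was psmb4, at 114, 119 and 123 CPM against 152, 145 and 143 CPM. On the deposited length-scaled FPKM scale psmb4 and psmb1 had the highest control levels of the core, 125.9 ± 5.56 and 117.9 ± 5.33 FPKM (SD, n = 3), with overlapping libraries.

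The alpha ring was less even. Of 9 alpha genes, 7 rose, psma4 did not pass the test, and psma6l fell. The gene psma2 (ENSDARG00000040121) stood at 26.7, 28.1 and 30.4 CPM against 36.0, 40.1 and 38.1 CPM, the largest rise of the ring, with a log2 fold change of 0.42 ± 0.09 (SE, adjusted p by edgeR = 1.2e-04). Its gene body overlaps atad2 on the same strand and mrpl32 on the other, so some of its reads are uncertain. The gene psma3 followed with 0.41 ± 0.05 (SE). The smallest change in the ring was that of psma4, at 91.3, 94.1 and 96.0 CPM against 111, 100 and 97.3 CPM (log2 fold change 0.13 ± 0.06 SE, adjusted p by edgeR = 0.062). Those groups did not overlap, and without wbp11-MO replicate 3 the gene passed the test (adjusted p by edgeR = 0.042, with 0.042 to 0.43 over the settings). The gene psma8, named after the alpha subunit variant that mammals use in the testis, was the most abundant alpha gene at 103.1 ± 2.95 FPKM in control-MO (SD, n = 3) and rose by 0.29 on the log2 scale. No record in the count table carried the symbol psma7.

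The exception in the core was psma6l (ENSDARG00000043899, chromosome 15, 47920629 to 47929455), a psma6-like gene. It had 30, 19 and 30 counts in the control-MO libraries and 6, 9 and 9 in the wbp11-MO libraries. In CPM these were 2.19, 1.62 and 2.19 against 0.443, 0.727 and 0.730, with no overlap. The log2 fold change was -1.66 ± 0.42 (SE, adjusted p by edgeR = 0.0011), and it lay between -1.78 and -1.46 over the alternatives. Its control level of 1.43 ± 0.21 FPKM was far under the 52.5 ± 0.77 FPKM of psma6a and the 31.2 ± 1.83 FPKM of psma6b (SD, n = 3). The spread of levels between all 16 core genes, as the SD of log2 FPKM, was between 1.57 and 1.66 in the control-MO libraries and between 2.00 and 2.17 in the wbp11-MO libraries. Without psma6l, left out after its values were seen, it was between 0.87 and 0.88 and between 0.88 and 0.90.

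**Figure D2:**
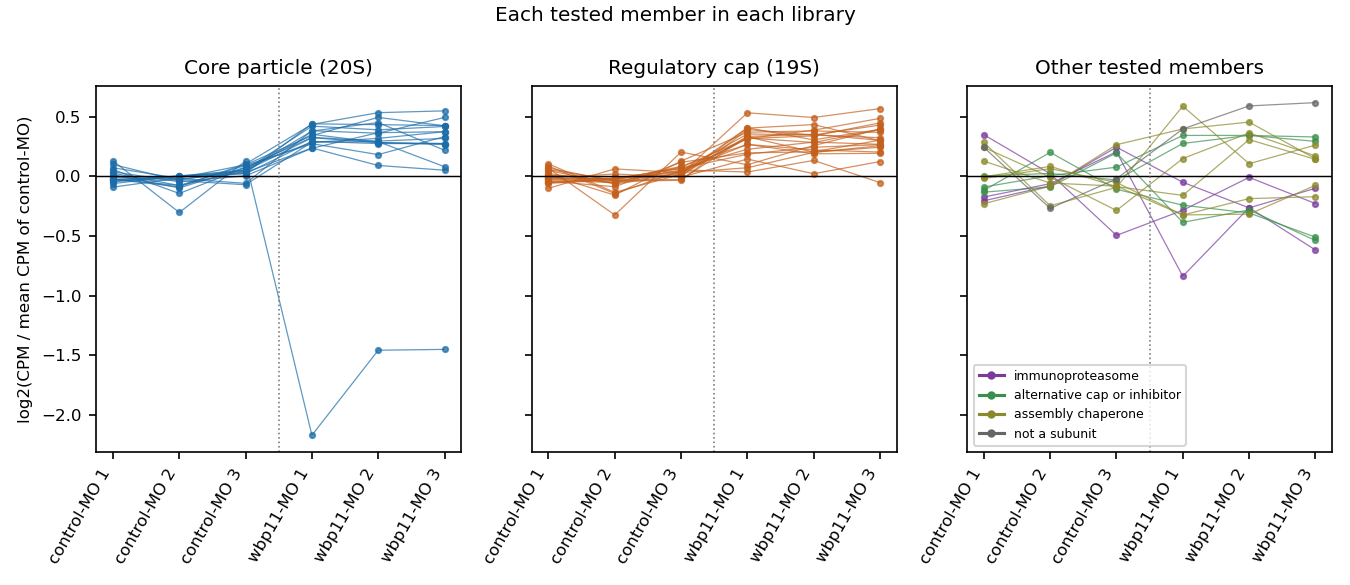
Log2 ratio of each tested member's CPM to its own control-MO mean (y axis) in all 6 libraries (x axis), with 1 line per gene. The labels give the order of replicates no meaning. Most core and cap genes form a narrow band that sits higher in all 3 wbp11-MO libraries, while psmd7 is under its control-MO mean in wbp11-MO replicate 3. The gene psma6l lies far below the band, and the other members spread in both directions.

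Cap genes behaved much like the core. Of 20, 17 rose and 0 fell in the edgeR test, with 17 at an unadjusted p under 0.05 and none lower by DESeq2 or limma-voom either. All 20 had a positive log2 fold change, with a median of 0.30. In 18 the groups did not overlap with wbp11-MO higher, against 32.3% of all tested genes and 47.8% of those with at least 25 CPM. Summed, the cap genes stood at 1875 ± 54.2 CPM in control-MO and 2323 ± 34.8 CPM in wbp11-MO (SD, n = 3 each), 23.9% higher.

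The base of the cap is built around the ring of ATPases, the psmc genes. Of 7, 6 rose, by log2 fold changes between 0.23 and 0.38. The largest was psmc1a (ENSDARG00000030537, chromosome 17, 8899016 to 8941421), at 109, 108 and 109 CPM against 144, 147 and 134 CPM, and psmc4 followed at 0.37 ± 0.06 (SE). The gene that did not pass was psmc3, at 128, 131 and 129 CPM against 143, 131 and 141 CPM, groups that did not overlap. Its log2 fold change was 0.10, with a 95% interval from -0.01 to 0.21 (adjusted p by edgeR = 0.12), so its interval lies under the core median although the gene is as abundant as its neighbours in the ring.

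Of the base scaffolds and ubiquitin receptors, psmd1 had the highest CPM of all members, at 169, 170 and 178 against 220, 219 and 232, with no overlap. Its log2 fold change was 0.38 ± 0.05 (SE, adjusted p by edgeR = 1.9e-07). The other scaffold gene, psmd2, on the unplaced scaffold KN150158.1, stood at 63.8, 71.4 and 69.9 CPM against 71.9, 78.7 and 81.8 CPM, a log2 fold change of 0.18 ± 0.07 (SE, adjusted p by edgeR = 0.020). Leaving out control-MO replicate 1 or wbp11-MO replicate 2 or 3 ended that call (adjusted p by edgeR = 0.14, 0.061 and 0.13), as did upper-quartile factors or library totals (adjusted p by edgeR = 0.060 and 0.18), the log2 fold change being 0.11 with totals. Over all settings its adjusted p ran from 0.0090 to 0.18. The receptor gene psmd4b rose by 0.36 ± 0.06 (SE).

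The lid lifts the ubiquitin chain off the substrate. Of its 9 genes, 8 rose. The largest rise among the core and cap genes of the naming pattern was that of psmd13 (ENSDARG00000016239, chromosome 25, 10485103 to 10496779), which encodes a scaffold subunit of the lid. It stood at 76.5, 74.3 and 77.1 CPM against 110, 107 and 113 CPM, a log2 fold change of 0.53 ± 0.06 (SE, adjusted p by edgeR = 2.4e-09). The deubiquitinase gene psmd14, whose product does the cutting, rose by 0.22 ± 0.06 (SE, adjusted p by edgeR = 0.0037). With library totals it did not pass (adjusted p by edgeR = 0.052, with 0.0023 to 0.052 over the settings). Its partner in the same dimer, psmd7 (ENSDARG00000102417), stood at 33.3, 32.4 and 34.8 CPM against 34.3, 36.7 and 32.3 CPM. These groups overlapped, and its log2 fold change of 0.04 had a 95% interval from -0.13 to 0.22 (adjusted p by edgeR = 0.70), which excludes the core median. The remaining lid genes psmd3, psmd6, psmd8, psmd11a, psmd11b and psmd12 rose by log2 fold changes between 0.26 and 0.40.

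Alternative caps open the core without ubiquitin, and they divided. The gene psme3 (ENSDARG00000012234, chromosome 12, 27206736 to 27212880), which encodes the nuclear activator PA28 gamma, stood at 48.5, 51.8 and 54.5 CPM against 65.5, 65.5 and 64.9 CPM, a log2 fold change of 0.34 ± 0.07 (SE, adjusted p by edgeR = 6.9e-05). Its gene body overlaps skap1 on the other strand. The paralogs for PA200, an activator known in mammals for its role in spermatogenesis and DNA repair, went opposite ways. The gene psme4b (ENSDARG00000018742, chromosome 12, 23991276 to 24053079) stood at 86.2, 87.5 and 84.2 CPM against 104, 109 and 105 CPM, and psme4a (ENSDARG00000087911, chromosome 13, 35689749 to 35744963) at 20.4, 21.1 and 25.7 CPM against 17.1, 18.4 and 15.4 CPM. Neither pair of groups overlapped, and the log2 fold changes were 0.31 ± 0.06 and -0.40 ± 0.12 (SE, adjusted p by edgeR = 3.0e-05 and 0.0039). The fall of psme4a was lost without control-MO replicate 3, its highest library (adjusted p by edgeR = 0.055, with 0.0011 to 0.055 over the settings). The gene psmf1, which encodes the proteasome binding protein PI31, stood at 10.9, 13.6 and 10.9 CPM against 9.97, 9.53 and 8.28 CPM. All wbp11-MO values were lower, but its log2 fold change of -0.34 ± 0.15 (SE) missed the threshold (adjusted p by edgeR = 0.054). It passed without wbp11-MO replicate 1 (adjusted p by edgeR = 0.047) and with 3 of the other alternatives, the adjusted p running from 0.023 to 0.23.

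Assembly chaperones help the rings form and leave the finished particle. Of 6, 1 rose and 0 fell in the edgeR test, with 2 at an unadjusted p under 0.05, both base chaperones, and 0 fell by DESeq2 or limma-voom. The base chaperone gene psmd9 stood at 15.9, 11 and 12.2 CPM against 19.6, 14.1 and 15.7 CPM, overlapping groups with a log2 fold change of 0.33 ± 0.14 (SE, adjusted p by edgeR = 0.047). Its call was lost in 8 of 14 alternatives, among them leaving out control-MO replicate 2 or 3 or wbp11-MO replicate 1 or 3 (adjusted p by edgeR = 0.20, 0.14, 0.36 and 0.067), and its log2 fold change ran from 0.17 to 0.50. The base chaperone genes psmd10, which encodes gankyrin, and psmd5 had log2 fold changes of 0.34 ± 0.17 and -0.23 ± 0.11 (SE, adjusted p by edgeR = 0.080 and 0.062). The first passed without control-MO replicate 3 (adjusted p by edgeR = 0.025) and the second without wbp11-MO replicate 3 (adjusted p by edgeR = 0.023) and under both of the scalings named above for psmd2. The core chaperone genes psmg1, psmg2 and psmg3 had log2 fold changes of 0.11, 0.23 and -0.23. Of these psmg2 passed without control-MO replicate 1 (adjusted p by edgeR = 0.033) and psmg3 passed with library totals (adjusted p by edgeR = 0.047). The gene pomp, a core maturation factor outside the naming pattern, stood at 54.1, 53.8 and 59.1 CPM against 66.3, 64.9 and 65.2 CPM and rose by 0.23 ± 0.07 on the log2 scale (SE, adjusted p by edgeR = 0.0032). The recombination gene psmc3ip rose by 0.53 ± 0.23 on the log2 scale (SE, adjusted p by edgeR = 0.044), a call lost in 8 of 14 alternatives, among them leaving out control-MO replicate 2 or 3 or wbp11-MO replicate 2 or 3 (adjusted p by edgeR = 0.14, 0.092, 0.099 and 0.11). With a replicate block its adjusted p was 0.055.

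Immunoproteasome genes had few counts in either group. Of 9 genes, 3 passed the count filter, and 0 rose and 0 fell in the edgeR test, with 1 at an unadjusted p under 0.05 and 0 called by DESeq2 or limma-voom. Summed, the 9 stood at 12.8 ± 0.51 CPM in control-MO and 10.4 ± 1.09 CPM in wbp11-MO (SD, n = 3 each), with all wbp11-MO sums lower. That is a description of the sum, without a test.

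The inducible catalytic gene psmb10 (ENSDARG00000043781, chromosome 4, 77207693 to 77218637), the counterpart of psmb7, stood at 6.42, 5.12 and 3.57 CPM against 4.14, 5.01 and 4.30 CPM. The groups overlapped, and the log2 fold change was -0.17 with a 95% interval from -0.65 to 0.31 (adjusted p by edgeR = 0.55), which neither excludes 0 nor reaches the core median. As a share of the summed FPKM of the pair, psmb10 made up 2.53% ± 0.79 in control-MO and 1.58% ± 0.13 in wbp11-MO (SD, n = 3 each), with overlapping libraries. The activator genes psme1 and psme2, which encode the interferon-inducible PA28 alpha and beta, stood at 3.81 ± 0.51 and 1.51 ± 0.24 FPKM in control-MO (SD, n = 3), against 27.5 ± 1.69 FPKM for psme3. The gene psme1 had 3.87, 4.18 and 5.03 CPM against 2.44, 3.63 and 2.84 CPM, all lower, with a log2 fold change of -0.56 ± 0.26 (SE, adjusted p by edgeR = 0.060). It was called lower with upper-quartile factors, with library totals and without wbp11-MO replicate 2 (adjusted p by edgeR = 0.045, 0.034 and 0.034, with 0.034 to 0.21 over the settings). The gene psme2 had 2.19, 2.39 and 2.99 CPM against 2.44, 2.10 and 2.35 CPM, with a 95% interval from -0.75 to 0.48.

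The other 6 did not pass the count filter. With every gene of at least 1 count tested, all 9 immunoproteasome genes entered the edgeR test and 0 rose and 0 fell. In zebrafish, psmb8a, psmb9a, psmb12 and psmb13a lie together in the class I region of the major histocompatibility complex, on chromosome 19 between 7105838 and 7144585 in the table. The gene psmb8a, counterpart of psmb5, had 1, 4 and 0 counts against 2, 0 and 2. The gene psmb9a, counterpart of psmb6, had 3, 4 and 5 counts against 0, 6 and 3. For psmb12 the counts were 5, 6 and 4 against 1, 3 and 1, all lower but untested, and for psmb13a they were 0, 1 and 0 against 1, 1 and 3. At this depth 3 counts in a library equal between 0.219 and 0.256 CPM, so these counts are near the limit of what could be detected. The gene bodies of psmb8a and psmb13a overlap each other on the same strand and span psmb9a, psmb12 and tap2a on the other, and how reads in shared exons were counted is not given in the sources used here. The thymus catalytic genes psmb11a and psmb11b, counterparts of psmb5 in cortical thymic epithelium, had 2 and 0 counts over the control-MO libraries and 1 and 2 over the wbp11-MO libraries. The gene psmb11a ends just upstream of psmb5 on the same strand of chromosome 2 (38370535 to 38371942), so a nearly silent and an abundant catalytic gene are neighbours.

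**Figure D3:**
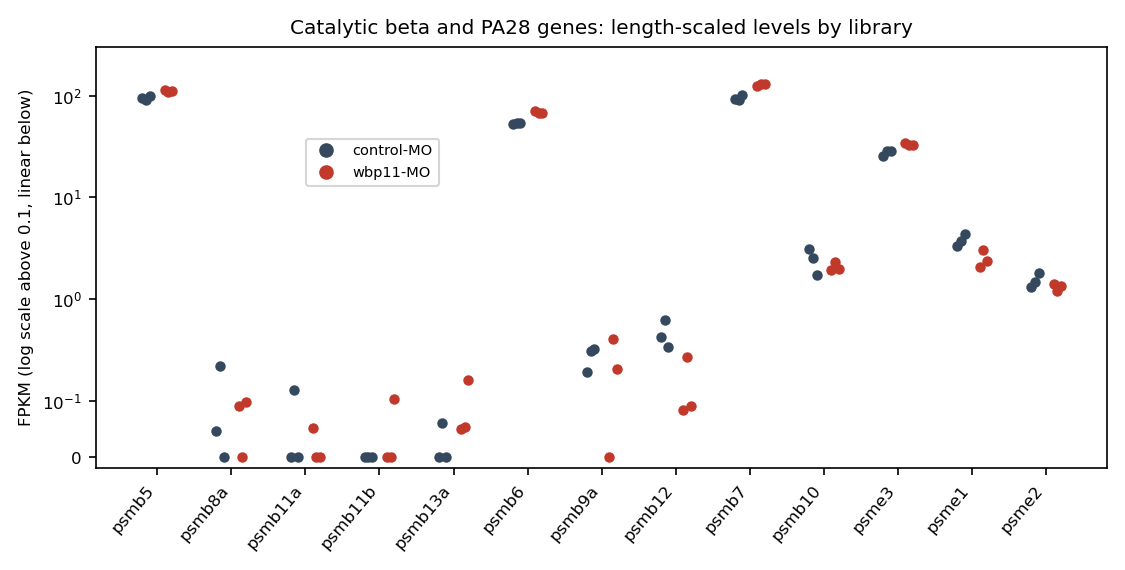
Deposited FPKM of catalytic beta and PA28 genes (y axis, log scale above 0.1 and linear below) for each library, with control-MO dark and wbp11-MO red. The constitutive genes psmb5, psmb6 and psmb7 have control-MO means between 53.1 and 94.4 FPKM and lie higher in wbp11-MO, whereas psmb8a, psmb9a, psmb12, psmb13a and the psmb11 genes lie under 1 FPKM in both groups.

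Markers of immune cells, which carry immunoproteasomes, moved in both directions, with more called lower than higher. Of 16 myeloid records found, 14 were tested, 2 rose and 6 fell (30.5% higher and 31.2% lower over all tested genes). Their summed level was between 153.6 and 159.2 CPM in control-MO and between 235.6 and 277.3 CPM in wbp11-MO. Within that sum the metalloproteinase gene mmp9 rose from 9.98 ± 0.96 to 143.2 ± 24.8 CPM (SD, n = 3 each), while the neutrophil genes mpx and npsn fell by 1.21 and 1.31 on the log2 scale. The mean rise of mmp9 exceeded that of the whole sum, so the other myeloid records together were lower in wbp11-MO. The macrophage receptor gene marco rose by 0.62 on the log2 scale (adjusted p by edgeR = 0.022), a call that ended on leaving out control-MO replicate 2 or 3 or wbp11-MO replicate 1 or 2 (adjusted p by edgeR = 0.10, 0.057, 0.069 and 0.057). Of 16 lymphocyte and thymus markers, 8 were tested, 0 rose and 4 fell in the edgeR test, beside those same shares of all tested genes. The summed level lay between 276.7 and 291.0 CPM in control-MO and between 254.7 and 256.9 CPM in wbp11-MO. Most of that sum came from tox and gata3, named after their values were seen. These stood at 168.7 ± 5.50 and 79.8 ± 1.06 CPM in control-MO and 155.2 ± 1.37 and 80.6 ± 3.42 CPM in wbp11-MO (SD, n = 3 each). The T cell gene cd8a was at 0 in all libraries, 4 of the list had 3 counts or fewer in all, among them the members psmb11a and psmb11b, which the list also holds, and ccl25a, a chemokine gene of the thymus, fell from 9.49 ± 1.02 to 1.04 ± 0.59 CPM (SD, n = 3 each). The transcription factor gene runx3 fell by 0.57 on the log2 scale. The part of these cells in the immunoproteasome values was not tested.

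Interferon response and antigen presentation genes moved in both directions. Of 31 listed, 23 were tested, 7 rose and 7 fell, which is close to the shares of all tested genes (30.5% higher and 31.2% lower), and their median log2 fold change was -0.10. The pooled count joins 2 unlike parts, set out here after the values were seen. Those that rose were isg15, irf1b, irf8, irf9, nlrc5, b2m and tapbp.2. Those that fell were tapbpl, b2ml, mhc1zba, erap1b, erap2, canx and calr, all from the antigen presentation part. No interferon factor was called lower in the main test, though some could not be tested. Named after their values were seen, mxa and rsad2 did not pass the count filter. They had 22 and 7 counts over the control-MO libraries and 8 and 13 over the wbp11-MO libraries. The gene irf2, named likewise, had a log2 fold change of -0.12 (adjusted p by edgeR = 0.57). Since b2m and tapbp.2 belong to the antigen presentation part, the parts do not divide cleanly by direction. The ubiquitin-like interferon gene isg15 stood at 0.802, 1.11 and 0.656 CPM against 7.24, 6.70 and 12.7 CPM, a log2 fold change of 3.38 ± 0.31 (SE, adjusted p by edgeR = 4.9e-11). The interferon regulatory factor gene irf1b rose by 2.11 ± 0.24 and, chosen after its values were seen, nlrc5, an activator of class I antigen presentation genes in mammals, by 2.41 ± 0.40 (SE, adjusted p by edgeR = 4.5e-09 and 5.4e-06). In the same libraries psmb10, psme1 and psme2 had negative log2 fold changes and psmb8a and psmb9a had 6 counts or fewer per library. The signal transducer gene stat1a did not pass the test, at 56.5 ± 0.04 and 51.3 ± 2.76 CPM (SD, n = 3 each, adjusted p by edgeR = 0.084), though it was called lower with upper-quartile factors and library totals (adjusted p by edgeR = 0.031 and 0.012). The gene stat1b did not pass the count filter, at 0.207 ± 0.12 and 0.629 ± 0.25 CPM. Among those that fell were tapbpl, which edits peptides on class I molecules, and b2ml, a class I light chain gene, with log2 fold changes of -1.81 and -0.82.

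Paralog pairs mostly kept their balance. The share of psma6a in the summed FPKM of psma6a and psma6b was 62.7% ± 1.11 in control-MO and 64.4% ± 2.77 in wbp11-MO (SD, n = 3 each). The 2 genes stood at 54.9, 51.8 and 53.7 CPM against 63.0, 69.0 and 69.4 CPM, and at 39.5, 36.0 and 35.1 CPM against 45.0, 45.1 and 39.0 CPM. The rise of psma6b was the weaker call (log2 fold change 0.22 ± 0.08 SE, adjusted p by edgeR = 0.020) and ended on leaving out control-MO replicate 2 or 3 or wbp11-MO replicate 1 or 2, and with library totals (adjusted p by edgeR = 0.052, 0.086, 0.096, 0.088 and 0.12, with 0.0082 to 0.12 over the settings). The share of psmc1a among the psmc1 pair was 53.6% ± 2.04 against 56.1% ± 1.02, and that of psmd4a among the psmd4 pair was 10.9% ± 1.74 against 10.3% ± 1.17 (SD, n = 3 each), both overlapping. The pairs behind these shares were psmc1b at 60.7, 51.7 and 59.0 CPM against 68.8, 66.6 and 65.8 CPM, and psmd4a at 9.63, 7.33 and 10.6 CPM against 9.82, 10.98 and 12.1 CPM. The latter did not pass the test (log2 fold change 0.25 ± 0.16 SE, adjusted p by edgeR = 0.18). A second record, listed at 0 counts in every library, overlaps psmd4a on its own strand.

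Shares did not overlap in 2 pairs, and these are descriptions without a test or a background from other gene pairs. The share of psmd11a fell short of control in each wbp11-MO library, at 50.2%, 53.6% and 50.3% against 48.8%, 49.7% and 49.6%, a small shift from 2 genes that both rose. The 2 genes stood at 62.8, 64.0 and 68.2 CPM against 76.1, 79.4 and 78.4 CPM for psmd11a, and at 71.9, 63.9 and 77.9 CPM against 92.1, 92.8 and 92.0 CPM for psmd11b. The share of psme4a was 19.5%, 19.8% and 23.8% in control-MO and 14.4%, 14.7% and 13.05% in wbp11-MO, the widest shift of any pair. Paralogs can share reads, and whether multiply mapped reads were dropped is not given in the sources used here.

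**Figure D4:**
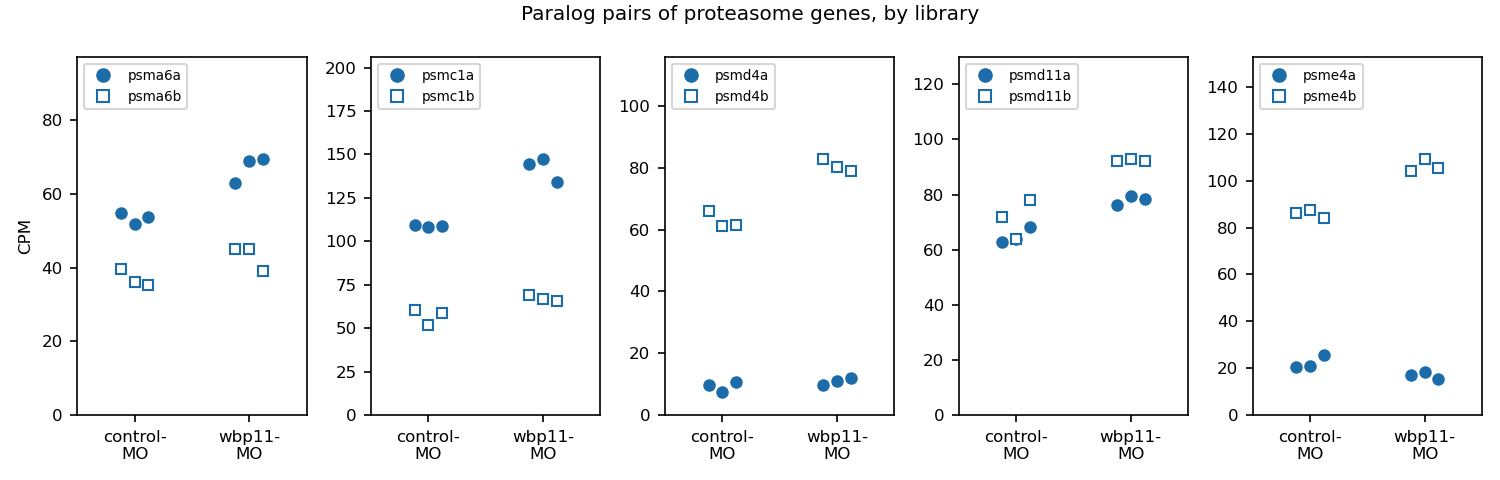
CPM (y axis, from 0) of both members of 5 paralog pairs in each control-MO and wbp11-MO library, with 1 point per library. Both copies have higher means in wbp11-MO for psma6, psmc1, psmd4 and psmd11, though psma6b and psmd4a overlap between the groups. In the psme4 pair psme4b is higher and psme4a lower, at 15.4 to 18.4 CPM against 20.4 to 25.7 CPM.

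Genes that work with the proteasome leaned the same way. Of 30 ubiquitin-proteasome partners outside the naming pattern that were found and tested, of 33 listed, 21 rose and 1 fell. Their median log2 fold change was 0.29. Among all tested genes 30.5% were higher and 31.2% lower. For genes of at least 25 CPM the shares were 47.0% and 28.7%, with a median log2 fold change of 0.13. The ubiquitin receptor gene adrm1, an integral cap subunit, stood at 65.1, 63.1 and 67.1 CPM against 92.5, 95.7 and 101 CPM, a log2 fold change of 0.56 ± 0.06 (SE, adjusted p by edgeR = 2.6e-09), larger than any cap gene of the naming pattern. The small lid gene sem1 did not pass, at 66.7 ± 1.82 and 69.1 ± 2.22 CPM (SD, n = 3 each, adjusted p by edgeR = 0.51). The gene ube3c, a ubiquitin ligase that acts on stalled substrates at the proteasome, rose the most, from 36.4 ± 1.38 to 94.1 ± 4.86 CPM (SD, n = 3 each; log2 fold change 1.37 ± 0.07 SE, adjusted p by edgeR = 2.8e-17). The ubiquitin-activating enzyme gene uba1 and the polyubiquitin gene ubc changed oppositely, with log2 fold changes of 0.47 and -0.24.

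Of 20 genes listed as NFE2L and heat shock regulators, all tested, 8 rose and 4 fell, with a median log2 fold change of 0.19. The backgrounds were 30.5% higher and 31.2% lower for all tested genes, and 47.0% and 28.7% for abundant ones. The NFE2L1 orthologs nfe2l1a and nfe2l1b stood at 11.1 ± 0.56 and 34.4 ± 0.82 CPM in control-MO and at 13 ± 0.92 and 38.9 ± 4.18 CPM in wbp11-MO (SD, n = 3 each), and neither passed the test (adjusted p by edgeR = 0.17 and 0.076). The groups of nfe2l1a did not overlap, with wbp11-MO higher, and without wbp11-MO replicate 2 nfe2l1b passed (adjusted p by edgeR = 0.022). Named after its values were seen, nfe2l3 rose by 0.31 on the log2 scale (adjusted p by edgeR = 2.3e-04). The protein NFE2L1 is controlled after translation in mammals, which transcript levels do not report. The oxidative stress regulator gene nfe2l2a fell from 70.0 ± 7.51 to 49.7 ± 1.76 CPM and the heat shock factor gene hsf1 rose from 21.3 ± 2.92 to 43.7 ± 2.66 CPM (SD, n = 3 each), by log2 fold changes of -0.49 and 1.04 (adjusted p by edgeR = 1.0e-06 and 9.2e-11). The gene stat3 rose by 1.27, and the small Maf gene mafgb fell by 0.60, or by 0.40 without wbp11-MO replicate 2, which ended its call (adjusted p by edgeR = 0.087). Of the other small Maf genes listed, mafk rose by 0.75 (adjusted p by edgeR = 0.0080), while mafga and maff did not pass. These were named after their values were seen.

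**Figure D5:**
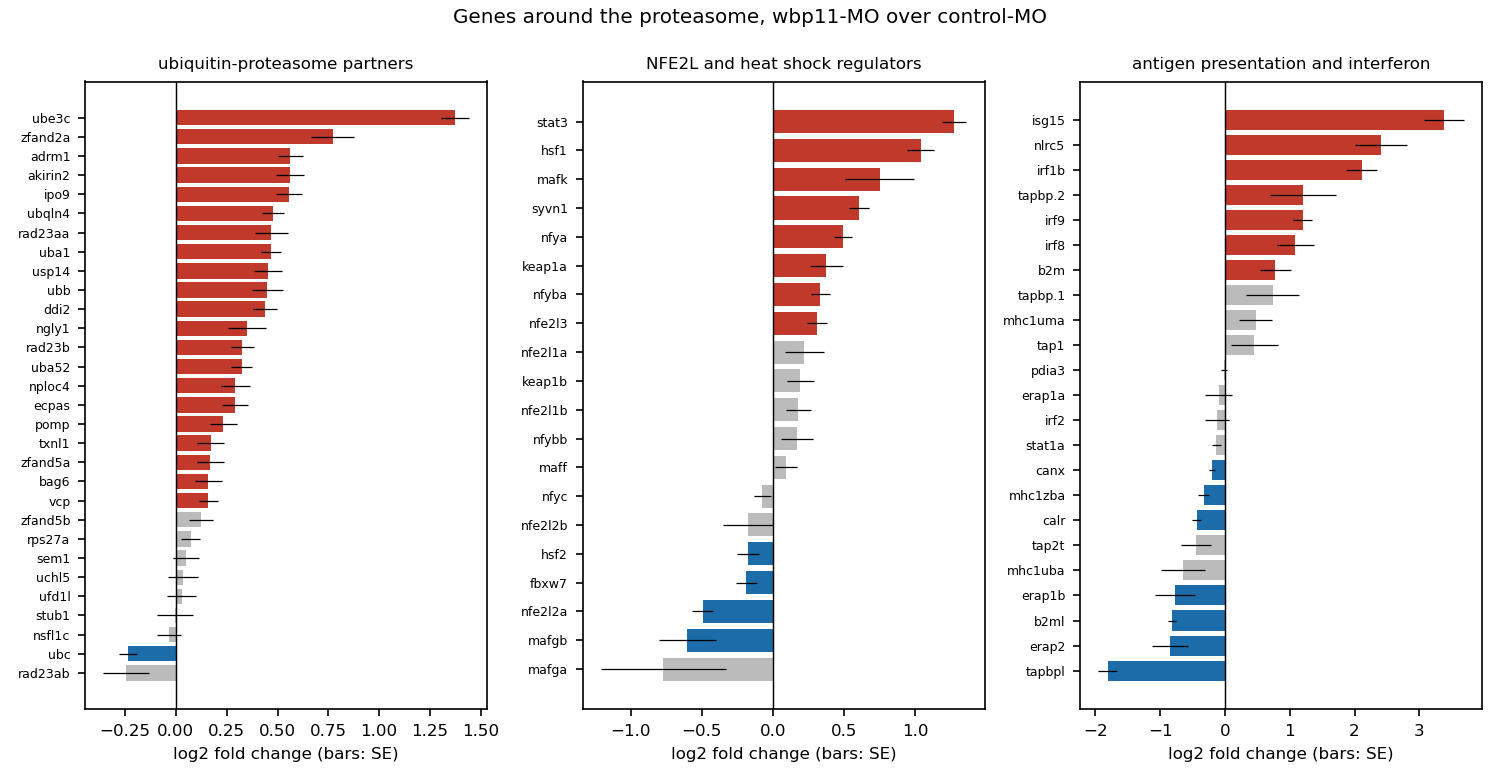
Log2 fold change (x axis) of each tested gene in 3 lists around the proteasome, with bars from 0 and SE as whiskers; red rose, blue fell and grey did not pass the adjusted p threshold. The x axes differ between panels. Partners lean to the right, led by ube3c at 1.37, while antigen presentation and interferon genes split from isg15 at 3.38 to tapbpl at -1.81.

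The members are scattered over the genome. They lie on 21 chromosomes and 1 unplaced scaffold, and the only members within 100 kb of each other are the 4 immunoproteasome genes on chromosome 19 and the psmb5 and psmb11a pair. Gene bodies of 18 members overlap another gene, 6 of them on the same strand. The strand setting of the counting is not given, so reads of genes such as psma6b with nfkbiaa, psmd1 with htr2b and psmd10 with nxt2 cannot be told apart where exons coincide.

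The tissue label, but no group label, was checked on other genes. All 13 records of muscle, heart, neuron, glia, skin, liver, gut, cartilage, blood, rod and kidney markers had at least 1 CPM in control-MO. In wbp11-MO 6 of them rose and 5 fell (30.5% and 31.2% over all tested genes). Those that rose include the muscle gene ckma and both hbae1.1 globin records, with log2 fold changes of 0.89, 1.35 and 1.02. The liver gene fabp10a and the rod gene rho fell, with -6.06 and -4.91. Marker levels of these tissues therefore moved with the groups, and their part in the proteasome values was not tested. The targeted gene does not check the labels, since the kind of block (translation or splicing) is not in the labels: of its 2 records, that on chromosome 3 rose by 0.72 ± 0.12 on the log2 scale and that on scaffold KN150013.1 had 0.30 ± 0.16 (SE, adjusted p by edgeR = 4.7e-06 and 0.10).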

How the data were processed

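Poly(A) RNA was sequenced from pools of 50 embryos, with 3 pools per group. Counts are the authors' deposited whole-number reads per gene on GRCz11, made per the submitters' processing notes with FastQC 0.12.1 and HTSeq 2.0.5. For the aligner, annotation release, strand and multiple-mapping settings, nothing is given in the sources used here. FPKM values are the authors' deposited counts over gene length and library total, and served for levels between genes and shares of pairs. Counts were tested over the whole table in R 4.3.3 with edgeR 4.0.16 (filterByExpr, TMM, quasi-likelihood F-test, no block, Benjamini-Hochberg adjusted p under 0.05). Each SE is the log2 fold change over the root of its F. Alternatives were RLE and upper-quartile factors, library totals, 2 other filters (at least 1 count, or CPM of 1 in 3 libraries), a replicate block, DESeq2 1.42.0, limma-voom (limma 3.58.1) and leaving out each library. The tests were run on simulated counts first, with changed genes drawn from all abundances. Of 50 genes changed 1.25-fold 12 were recovered, and of 50 changed 2-fold 41 were. Of 19495 unchanged genes 6 were called. Far fewer genes changed in the simulation than the 61.7% called in the data, so its cutoff on unadjusted p was stricter. Recovery in the data can therefore differ from these counts. A missed call at 1.25-fold alone remains weak evidence of no change. Where an interval is given, it shows which changes are excluded. Members and lists were chosen with earlier results of these data known. The text accounts for every member by class and names, of each other list, up to 2 called genes per direction with the smallest adjusted p, and 9 fixed genes. Further genes are marked as named after their values were seen. No pair of same-group libraries was a duplicate (chi-square over its degrees of freedom, 2.62 to 4.03). No sequence is shown, since none was used here. Intervals and floors cover counting error or the spread between these pools only.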

Additional observations from a re-analysis of the deposited data

How the results depend on the processing

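The counts of core and cap genes kept their direction under every alternative run: 13 to 15 core genes and 15 to 17 cap genes rose, with 1 and 0 lower. The count of members that fell, 2 as reported, was 5 with upper-quartile factors and 6 with library totals, and between 1 and 3 when a library was left out. The count of immunoproteasome genes that fell, 0 as reported, was 1 with upper-quartile factors, 1 with library totals, and 0 to 1 when a library was left out, the gene being psme1 each time. These scalings moved the median log2 fold change of all genes to -0.03 and -0.07. Signs reversed for 4 members that were called under no setting. When a library was left out, psmd7 ran from -0.0086 to 0.080, psmg1 from -0.0031 to 0.22, psme2 from -0.23 to 0.0085 and psmb10 from -0.37 to 0.051, and with library totals psmd7 was -0.031. The partner gene sem1 was -0.023 with library totals. The cause was not tested. Same-numbered libraries showed no shared deviation over all tested genes (correlations between -0.04 and 0.01). Genes with few counts, and their counting error, weigh equally in that correlation, so it cannot exclude a pairing. With the replicate block 34 members rose and 2 fell, and psmc3ip was the member whose call was lost. The 6 members outside the main test had at most 6 counts in any library. The part of depth, and for those on chromosome 19 of how overlapping exons were counted, was not tested.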
